A study of Mus musculus with 2 samples.

Results

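The genes described here are 10 genes that mark or act in the stromal niche of mouse bone marrow: *Lepr*, *Adipoq*, *Vcam1*, *Kitl*, *Il7*, *Ebf1*, *Ebf3*, *Foxc1*, *Pparg* and *Cebpa*. They are 10 of the 31054 features in the count matrices, and they were chosen by name from what is known of marrow stroma. Cells were taken from rib repair calluses 4 days after a large-scale resection of rib bone and profiled by single-cell RNA-seq (scRNAseq) on the 10x Chromium platform. The control library came from Sox9:CreER;R26:tdT;Smof/+ mice and the *Smo* conditional knockout (cKO) library from Sox9:CreER;R26:tdT;Smof/f mice, with cells of 3 adult animals pooled for each genotype. All animals carried the Sox9:CreER driver and the R26:tdT reporter and received tamoxifen before injury, and the controls had 1 floxed *Smo* allele, so the groups shared driver, reporter and tamoxifen and differed in the second *Smo* allele. Sox9:CreER removes *Smo*, the signal transducer of the Hedgehog (Hh) pathway, only from cells of the Sox9+ lineage, and the callus was digested whole, with most of the adjacent muscle left behind and dead cells removed. Each genotype has 1 library, so genotype, library preparation and pool of animals cannot be told apart, and a difference between genotypes is described here and not tested.

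In marrow, reticular stromal cells around the sinusoids carry the leptin receptor and the chemokine *Cxcl12*. They support hematopoietic stem cells and lymphoid progenitors with stem cell factor (*Kitl*), interleukin 7 (*Il7*) and the adhesion molecule VCAM1. The transcription factors *Foxc1*, *Ebf1* and *Ebf3* are known to maintain this state, while *Cebpa* and *Pparg* drive the turn of such cells into marrow adipocytes, which secrete adiponectin (*Adipoq*). Adult marrow stroma of this kind carries leptin receptor and adiponectin transcripts in the same cells. Most of the 10 genes have other sources as well, since *Kitl* and *Il7* are made by endothelium, *Ebf1* by B lineage cells and *Cebpa* by myeloid cells.

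Cells with 200 or more detected genes and under 10% mitochondrial counts were kept: 10057 of 10747 control and 9507 of 10512 *Smo* cKO barcodes, at median depths of 8367 and 9092 UMIs (unique molecular identifiers, each standing for 1 captured transcript). The libraries shared 613 barcodes, of which 599 were kept in both, and in 489 of these pairs the UMI totals lay 10-fold or more apart, with a median of 641 UMIs in the shallower and 35732 in the deeper cell. Some levels and ratios of whole classes are therefore given with and without these barcodes. Values for parts of a class are given with them only. *Smo* itself was at 19.0 CPM (the UMIs of a gene per 1000000 UMIs of the class) in control and 12.4 CPM in *Smo* cKO connective-like cells, on 1546 and 933 UMIs. It was also lower in *Smo* cKO muscle cells, at 17.6 and 6.22 CPM on 44 and 34 UMIs, so the difference was not particular to connective-like cells. Which part of *Smo* is deleted, and whether the counted transcript ends lie in it, is not given in the sources used here.

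Cells were sorted into classes by fixed marker lists that hold none of the 10 genes. Connective-like cells, defined by collagens, *Dcn*, *Lum*, *Pdgfra* and *Postn*, numbered 6409 (control) and 5056 (*Smo* cKO), and macrophage- or monocyte-like cells 1357 and 1748. Muscle, osteoclast, neutrophil, mural and endothelial classes were smaller, with 66 to 470 cells each, and these 7 classes had at least 50 cells in both libraries. Unlike the other classes, the mural class also took in cells rich in connective transcripts, so its levels are not fully apart from those of connective-like cells. A further 1116 and 1004 cells fell in no class, and 633 and 811 cells lay near the limit of connective transcripts, between 0.5% and 1.5% of their UMIs. Median depths differed between classes, from 10719 and 13236 UMIs in connective-like to 2465 and 3180 UMIs in macrophage- or monocyte-like cells, so levels are compared as CPM and the share of cells with a UMI is given beside them.

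Transcripts of all 10 genes were found, but among the 7 classes with at least 50 cells their highest level was in most cases outside the connective-like cells. Of the 8 genes at 10 CPM or more in any of these classes, 0 were highest in the connective-like class in both libraries, where 7.03% of 10482 genes above the same limit were. With so few genes, a count of 0 does not stand apart from that share. *Lepr*, *Kitl*, *Il7*, *Ebf3* and *Cebpa* passed the limit only through other classes, so they could not be highest in the connective-like class in both libraries. *Adipoq*, below the limit of 10 CPM, was highest in the connective-like class in both libraries, with intervals that overlapped those of the other classes. *Lepr*, *Kitl* and *Il7* had their top level in endothelial-like cells in both libraries, *Ebf1* in mural-like cells and *Cebpa* in macrophage- or monocyte-like cells. Without the barcodes of both libraries, control *Lepr* was at 9.35 CPM (6 UMIs) in endothelial-like and 9.41 CPM in macrophage- or monocyte-like cells, so its top class changed. *Lepr* and *Il7*, the latter at most 9.60 CPM, then no longer reached 10 CPM in any of these classes. *Foxc1* and *Ebf3* were highest in endothelial-like cells of the control and mural-like cells of the *Smo* cKO library, with intervals that overlapped those of the connective-like class in the control library. Some smaller classes stood higher on few cells, such as *Lepr* at 52.9 CPM (22.9 to 104) on 8 UMIs in 28 control myeloid progenitor-like cells, against 6.41 CPM on 2 UMIs in 32 *Smo* cKO ones. Connective-like cells were so many and so deep that they still held most UMIs of 8 of the genes in the control library. Their parts ran from 70.0% for *Lepr* to 89.9% for *Ebf1*, the exceptions being *Adipoq* (46.9%) and *Cebpa* (46.7%). The class also held 81163941 of the 104189394 UMIs of all kept control cells. *Lepr*, *Kitl* and *Pparg* lay below that share, so a majority of UMIs in this class is no trait of a gene. Intervals below are exact 95% Poisson intervals for CPM and exact 95% Clopper-Pearson intervals for shares of cells, and they cover counting error only.

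**Figure D1:**
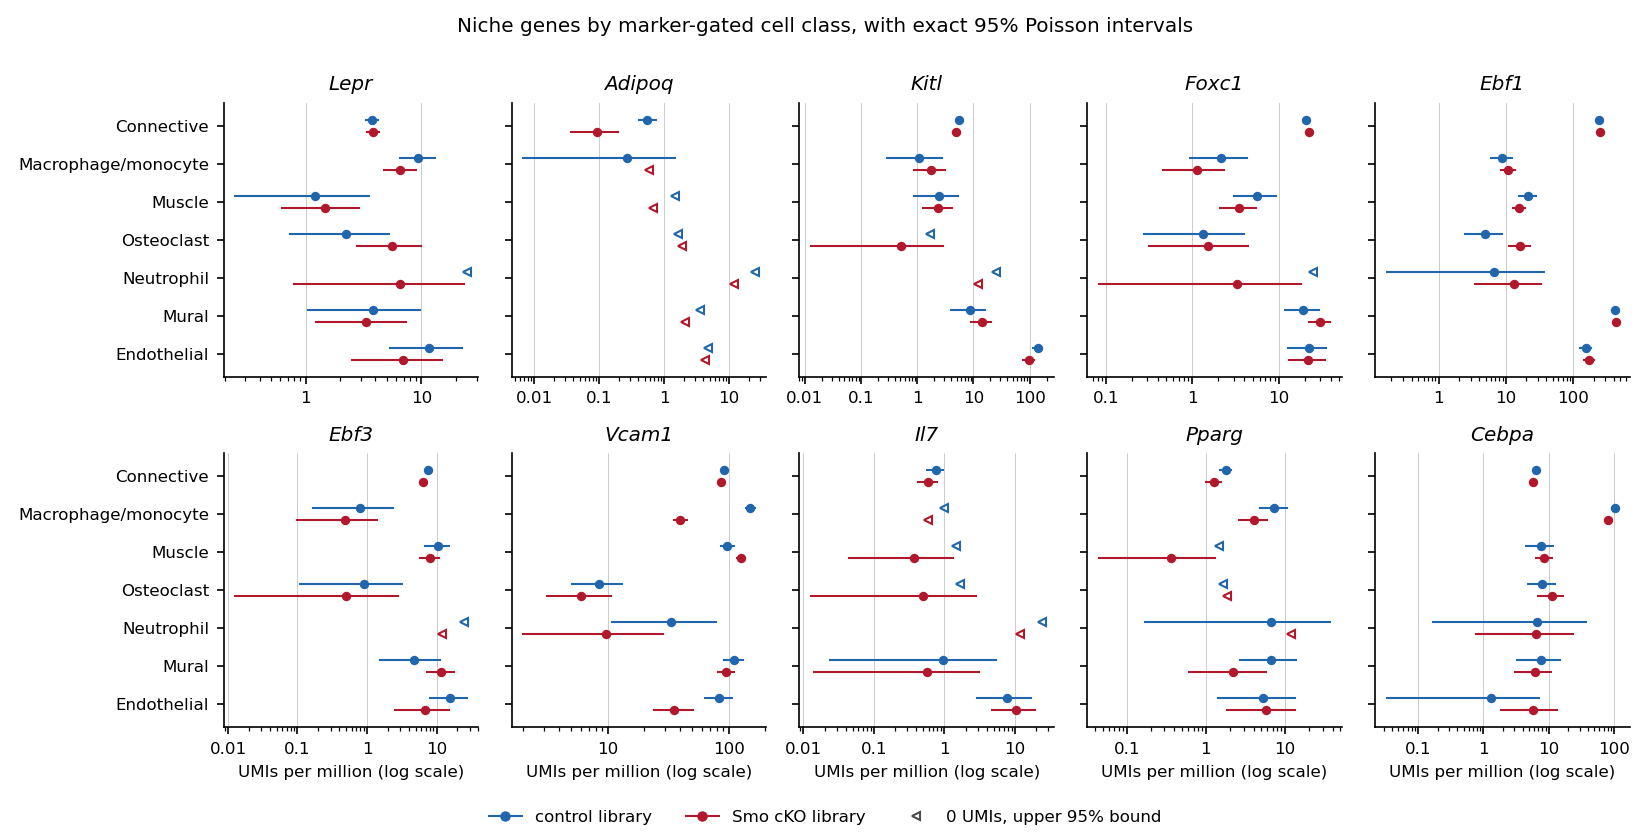
CPM (log scale) of the 10 genes in the 7 classes with at least 50 cells in each library. Points are the control (blue) and *Smo* cKO (red) libraries, lines are exact 95% Poisson intervals, and an open triangle marks the upper bound where no UMI was found. *Kitl* stands highest in endothelial-like cells, *Ebf1* in mural-like cells and *Cebpa* in macrophage- or monocyte-like cells in both libraries, and *Vcam1* in the macrophage- or monocyte-like class is at 151 CPM in control and 39.9 CPM in *Smo* cKO cells.

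*Lepr*, the leptin receptor (ENSMUSG00000057722, chromosome 4, 101717404 to 101815352 on the plus strand of GRCm38, the assembly named mm10), was sparse in connective-like cells. The control library had 305 *Lepr* UMIs in 211 of 6409 connective-like cells and the *Smo* cKO library 287 UMIs in 199 of 5056. These gave 3.76 CPM in control and 3.82 CPM (3.39 to 4.29) in *Smo* cKO cells, and the control level lay inside this interval. Cells with a *Lepr* UMI made up 3.29% (2.87% to 3.76%) and 3.94% (3.42% to 4.51%) of the class, and 163 and 155 of them held a single UMI, while the richest cells held 14 and 8.

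Macrophage- or monocyte-like cells had *Lepr* at 9.39 CPM (6.54 to 13.1) in control and 6.57 CPM (4.71 to 8.91) in *Smo* cKO cells, above the connective-like level in both. In endothelial-like cells 9 and 6 UMIs gave 11.7 and 6.89 CPM, with intervals that overlapped those of the macrophage- or monocyte-like cells. Thinned to 1000 UMIs for each cell, the expected share of cells with a *Lepr* UMI was 0.305% of control and 0.410% of *Smo* cKO connective-like cells, against 0.770% and 0.627% of macrophage- or monocyte-like cells. The connective-like level of *Lepr* was thus below that of the macrophage- or monocyte-like cells on either measure, with intervals of the thinned shares that overlapped in both libraries. With cells above 2000 detected genes left out, only 15 and 20 UMIs remained in connective-like cells, and the levels became 2.28 and 6.55 CPM, a log2 ratio of 1.53 (*Smo* cKO over control). Macrophage- or monocyte-like cells then had 7.79 and 7.48 CPM. The thinned shares were 0.241% of control and 0.807% of *Smo* cKO connective-like cells, against 0.634% and 0.673%, so in the *Smo* cKO library the order of the shares turned.

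Within the connective-like cells, *Lepr* was spread over the subclasses. Subclasses were cut by further marker lists and are named after their leading genes: matrix fibroblasts (*Eln*, *Sfrp4*), adventitial cells (*Pi16*, *Clec3b*), activated cells (*Inhba*, *Tnc*), skeletogenic cells (*Acan*, *Fmod*), osteoblast-like cells (*Ibsp*, *Bglap*), tenocyte-like cells (*Tnmd*, *Mkx*), a small *Serpinb2* *Dlk1* group and the remaining connective-like cells, led by *Cfd*, *Hp*, *Des*, *Mylk* and *Cxcl12* and with hemoglobin genes and *Cd74* among their top 10 genes by fold. *Lepr* was at 4.98 CPM (3.59 to 6.73) in skeletogenic and 4.54 CPM (3.76 to 5.42) in activated control cells, against 1.94 CPM (1.23 to 2.91) in matrix fibroblasts and 1.12 CPM (0.305 to 2.87) in adventitial cells. In the *Smo* cKO library the same 4 subclasses stood at 4.28, 4.37, 3.20 and 3.78 CPM, and their intervals overlapped.

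Among connective-like cells with 5000 or more UMIs, those that held at least 3 proliferation markers had *Lepr* at 5.51 CPM and the rest at 2.69 CPM in the control library. The values in the *Smo* cKO library were 4.70 and 3.01 CPM. The log2 ratio of proliferating over other cells was 1.04 (0.70 to 1.38) in control and 0.64 (0.29 to 1.00) in *Smo* cKO cells. Proliferating cells were also the deeper ones, with medians of 20706 and 22332 UMIs against 10360 and 12344 UMIs, and the part of this depth in the ratio was not tested.

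*Adipoq* (ENSMUSG00000022878, chromosome 16, 23146536 to 23158028, plus strand), the adipocyte hormone that marrow reticular cells also transcribe, was found in very few cells. The control library had 96 *Adipoq* UMIs in 31 kept cells and the *Smo* cKO library 8 UMIs in 5 cells. In connective-like cells these were 45 UMIs in 25 cells and 7 UMIs in 4 cells, or 0.554 CPM (0.404 to 0.742) and 0.0933 CPM (0.0375 to 0.192), a log2 ratio of −2.57 (−3.97 to −1.41). The control carriers include 1 cell with 10 UMIs, and without it the log2 ratio was −2.21 (−3.62 to −1.02). Without the barcodes found in both libraries it was −2.46.

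The richest control cells held some transcripts known from adipocytes. Of the 96 control UMIs, 59 (61.5%) lay in 5 cells with 7 or more each, and 4 of these 5 cells fell in no class, with 24, 10, 8 and 7 *Adipoq* UMIs. The cell with 24 UMIs also held 128 UMIs of the adipsin gene *Cfd*, 61 of the fatty acid carrier *Fabp4*, 49 of lipoprotein lipase (*Lpl*), 21 of the lipid droplet gene *Cidec* and 6 of *Plin1*, which coats lipid droplets. The connective-like cell with 10 UMIs held 145 *Cfd*, 94 *Lpl* and 8 *Plin1* UMIs. Of 9 listed adipocyte genes other than *Adipoq*, *Cfd* included, the cell with 24 UMIs held 7 and the other 4 held 3 to 5, and *Lep* and *Adrb3* had 0 UMIs in all 5. These 4 cells outside the classes had under 0.5% connective transcripts, and no cell in no class of the *Smo* cKO library held an *Adipoq* UMI. *Adipoq* in that group stood at 8.97 CPM in the control library, on 49 UMIs in these 4 cells. This was 23.3-fold higher than the floor of 3 UMIs over the *Smo* cKO group, which is not a bound on the difference. The exact interval of the log2 ratio had its upper end at −4.19, but it takes the 49 UMIs as independent counts although they lay in only 4 cells. Counted as cells, carriers were 4 of 1116 in control and 0 of 1004 in *Smo* cKO, and a difference in this share was not tested.

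The other carriers held 1 to 3 *Adipoq* UMIs. Of all carriers, 23 of 31 control and all 5 *Smo* cKO cells had *Cfd* and 25 and 5 had *Lpl*, while *Plin1* was found in 4 and 0 and *Cidec* in 2 and 0. The 4 cells with *Plin1* were all among the 5 richest. In connective-like carriers *Vcam1* was present in 24 of 25 control and 4 of 4 *Smo* cKO cells, where the product of the separate shares gives 11.2 and 1.91. These carriers were deep cells, and the product takes no account of depth. Most control ones lay above the class median of 10719 UMIs. The *Smo* cKO ones had 19205 to 24112 UMIs, against a class median of 13236. The part of depth in this excess was not tested.

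**Figure D2:**
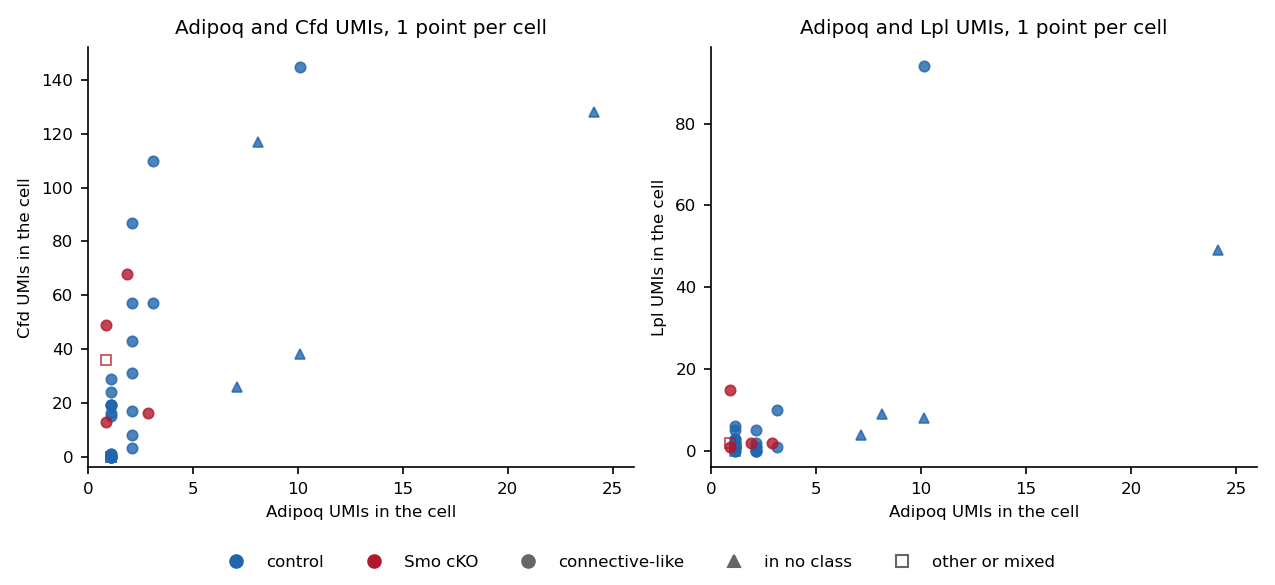
Each point is 1 kept cell with an *Adipoq* UMI, placed by its *Adipoq* UMIs (x axis) and its UMIs of *Cfd* (left) or *Lpl* (right). Points are offset slightly on the x axis, blue for the 31 control and red for the 5 *Smo* cKO cells, as circles for connective-like cells, triangles for cells in no class and open squares for other or mixed cells. The 5 cells with 7 or more *Adipoq* UMIs are all control cells, and 4 of them are triangles.

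No cell carried both *Lepr* and *Adipoq*, the pair that marks marrow reticular stroma. Among all kept cells, 294 control and 322 *Smo* cKO cells had *Lepr* and 31 and 5 had *Adipoq*, with 0 cells having both. In connective-like cells 0 of 6409 and 0 of 5056 allow shares of cells with UMIs of both of up to 0.0468% and 0.0593% (3 cells of the total). The product of the separate shares gives 0.823 and 0.157 connective-like cells with both, so with so few *Adipoq* cells such a pair was not detectable at this depth. *Lepr* and *Kitl* were found together in 11 control and 13 *Smo* cKO cells where the product of shares gives 12.9 and 12.2, and *Lepr* and *Ebf3* in 14 and 20 where it gives 18.0 and 17.8. *Lepr* and *Foxc1* met in 57 and 63 cells, against 43.8 and 47.5, but cells with *Lepr* were also the deeper ones, with medians of 19173 and 18691 UMIs against 10532 and 13028 UMIs in those without it.

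Connective-like cells with a *Lepr* UMI were not rich in *Cxcl12*, the chemokine that goes with *Lepr* in marrow stroma. *Cxcl12* was at 91.9 CPM (83.0 to 101.5) in control cells with *Lepr* and 171 CPM (168 to 174) in those without, and at 94.9 CPM (85.7 to 104.9) and 111 CPM (109 to 114) in the *Smo* cKO library. *Lpl*, another gene that goes with *Lepr* in marrow, was at 24.5 and 46.7 CPM in control and 25.5 and 41.7 CPM in *Smo* cKO cells with and without *Lepr*. Cells with *Lepr* were the deeper ones, and 37.0% of them in control and 34.2% in *Smo* cKO were activated cells. Of all connective-like cells 22.7% and 26.9% were activated. The part of depth and subclass in these levels was not tested. Cells with several of the 10 genes were the deep ones: connective-like cells with none of them had median depths of 2398 and 3302 UMIs and those with 5 of them 25859 and 27114 UMIs. No connective-like cell had more than 6, and 4 control and 5 *Smo* cKO cells had 6.

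*Kitl* (ENSMUSG00000019966, chromosome 10, 100015630 to 100100416, plus strand), which encodes stem cell factor, the ligand of the receptor KIT, was foremost an endothelial transcript. Endothelial-like cells had 107 *Kitl* UMIs in 35 of 66 control cells and 83 UMIs in 25 of 75 *Smo* cKO cells. This was 139 CPM (114 to 168) and 95.3 CPM (75.9 to 118), against 5.61 CPM (5.10 to 6.15) and 4.86 CPM (4.38 to 5.39) in connective-like cells. Among the larger classes mural-like cells were next, at 8.60 CPM (3.93 to 16.3) and 14.0 CPM (9.04 to 20.6), and the control interval overlapped that of the connective-like cells. Osteoclast-like cells, which are as deep as connective-like cells (medians of 10571 and 12526 UMIs), had *Kitl* in 0 of 202 and 1 of 139 cells, against 6.12% and 6.13% of connective-like cells.

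Even so, 455 of 645 control and 365 of 605 *Smo* cKO *Kitl* UMIs came from connective-like cells, by their number. In both libraries this was a smaller part than the class held of all UMIs. The small *Serpinb2* *Dlk1* group aside, adventitial cells, which in many tissues surround larger vessels, had the highest connective level at 16.3 CPM (12.3 to 21.0) and 16.8 CPM (12.0 to 22.9). Matrix fibroblasts followed at 9.71 CPM (8.01 to 11.6) in control and 6.25 CPM (4.56 to 8.37) in *Smo* cKO cells. Skeletogenic cells were lowest, at 2.49 and 1.54 CPM, below the adventitial cells in both libraries with intervals apart. *Kit*, the receptor of stem cell factor, was at 39.1 CPM (30 UMIs) and 20.7 CPM (18 UMIs) in endothelial-like cells, and at 0.345 and 0.480 CPM in connective-like cells.

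*Il7* (ENSMUSG00000040329, chromosome 3, 7569994 to 7613760, minus strand), the survival factor of early lymphoid cells, was near the limit of detection. Connective-like cells had 61 UMIs in 60 control and 44 UMIs in 44 *Smo* cKO cells, or 0.752 CPM (0.575 to 0.965) and 0.586 CPM (0.426 to 0.787). Endothelial-like cells had 6 UMIs in 5 cells and 9 UMIs in 6 cells, or 7.81 CPM (2.87 to 17.0) and 10.3 CPM (4.72 to 19.6), above the connective-like level in both libraries. Macrophage- or monocyte-like cells had none in 1357 and 1748 cells, which allows shares of cells with an *Il7* UMI of up to 0.221% and 0.172% (3 cells of the total) and does not limit the share that transcribe it. Its receptor chain *Il7r* was at 253 and 350 CPM in T or NK cells (25 and 93 UMIs) and at 72.1 and 74.3 CPM in macrophage- or monocyte-like cells, classes in which no *Il7* UMI was found.

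*Vcam1* (ENSMUSG00000027962, chromosome 3, 116109949 to 116129688, minus strand), the cell surface ligand of α4 integrins, was shared by many classes in the control library. It was at 92.3 CPM (90.2 to 94.4) in connective-like, 110 CPM (90.7 to 132) in mural-like, 97.7 CPM (85.8 to 111) in muscle, 83.3 CPM (64.2 to 106) in endothelial-like and 151 CPM (139 to 164) in macrophage- or monocyte-like cells. Osteoclast-like cells were far lower, with 19 UMIs in 202 control cells and 12 UMIs in 139 *Smo* cKO cells, the latter 6.07 CPM (3.14 to 10.6). Cells with a *Vcam1* UMI were 44.7% of control and 47.7% of *Smo* cKO connective-like cells, against 8.42% and 7.91% of osteoclast-like cells. *Vcam1* in connective-like cells was close in both libraries, with 87.3 CPM (85.2 to 89.4) in the *Smo* cKO library and a log2 ratio of −0.08 (−0.13 to −0.03).

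In macrophage- or monocyte-like cells, by contrast, *Vcam1* was lower in the *Smo* cKO library. The control library had 563 UMIs in 287 of 1357 cells (21.2%, 19.0% to 23.4%) and the *Smo* cKO library 249 UMIs in 161 of 1748 cells (9.21%, 7.90% to 10.7%). The levels were 151 CPM and 39.9 CPM (35.1 to 45.2), 3.78-fold higher in the control, a log2 ratio of −1.92 (−2.14 to −1.70). *Vcam1* was 1 of the 3 of the 10 genes at 10 CPM or more in this class and the only one of them lower by 2-fold or more, where 0.602% of 6973 genes were. Thinned to 1000 UMIs, the expected shares were 12.4% (10.7% to 14.4%) and 3.53% (2.70% to 4.52%). Without the barcodes of both libraries the log2 ratio was −1.93.

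The difference had the same direction on both sides of 5 divisions of these cells, which were chosen after the values had been seen. The osteopontin gene *Spp1* was detected in 1426 of 1748 *Smo* cKO and 805 of 1357 control cells, and *Vcam1* was lower in *Smo* cKO cells with *Spp1* (38.7 against 120 CPM) and without it (46.9 against 209 CPM). The mannose receptor gene *Mrc1*, a marker of resident macrophages, gave 47.6 against 217 CPM in cells with it and 34.4 against 96.3 CPM in cells without it. The monocyte receptor gene *Ccr2* gave 28.5 against 97.9 CPM with it and 41.9 against 157 CPM without. Cells with 3 or more *Vcam1* UMIs numbered 58 in control and 22 in *Smo* cKO cells. T or NK cells had 1 *Vcam1* UMI in 45 control and 0 in 122 *Smo* cKO cells (median depths of 1525 and 1787 UMIs). Neutrophils had 5 and 3 UMIs, or 33.4 and 9.74 CPM, with intervals that overlapped. Erythroid cells had 5 and 22 UMIs, or 60.0 and 34.9 CPM, and the interval of their ratio included 0. Whether any of these UMIs came from outside the cells was not tested.

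**Figure D3:**
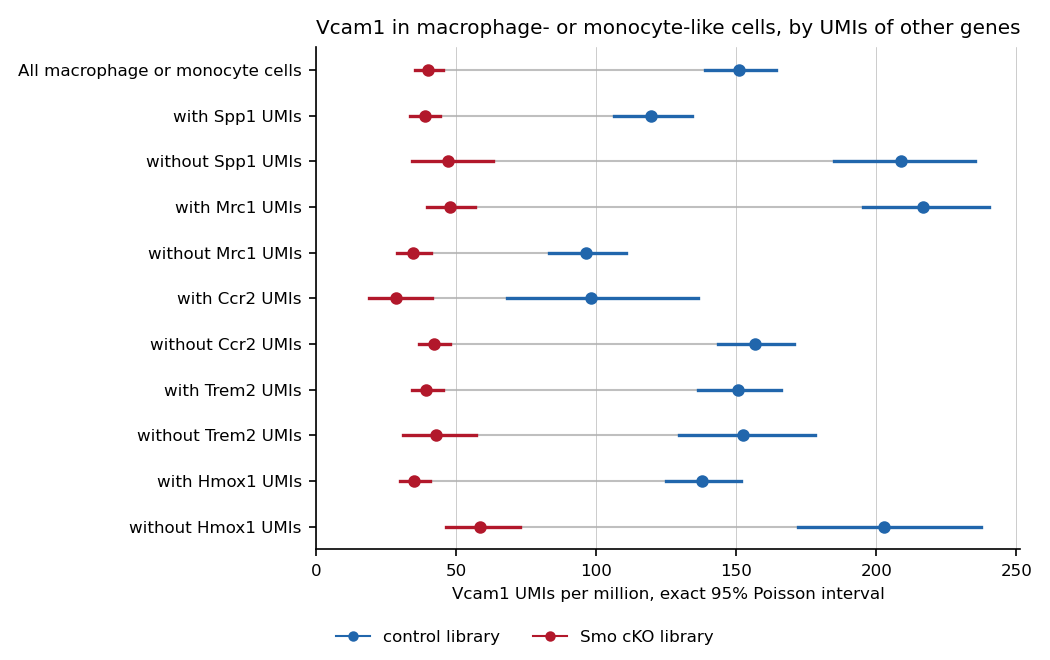
*Vcam1* CPM in macrophage- or monocyte-like cells of the control (blue) and *Smo* cKO (red) libraries, for all cells and for cells with or without UMIs of 5 other genes. Lines are exact 95% Poisson intervals. The control point lies to the right of the *Smo* cKO point in each row, at 151 against 39.9 CPM for all cells.

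Other classes did not share one direction. In endothelial-like cells *Vcam1* had 64 UMIs in 22 of 66 control and 31 UMIs in 9 of 75 *Smo* cKO cells, or 83.3 and 35.6 CPM (24.2 to 50.5). Myeloid progenitor-like cells had 53 UMIs in 28 control and 15 UMIs in 32 *Smo* cKO cells, or 351 and 48.1 CPM. Muscle lay the other way, from 97.7 CPM in the control to 127 CPM (118 to 137) in the *Smo* cKO library, on 244 and 695 UMIs. Within connective-like cells, matrix fibroblasts had the highest *Vcam1* level, at 187 CPM (180 to 195) and 166 CPM (156 to 175), and activated cells the lowest at 39.8 CPM (37.4 to 42.2) and 57.3 CPM (54.4 to 60.3). The 2 subclasses thus differed in opposite directions between the libraries, by log2 ratios of −0.18 (−0.28 to −0.08) and 0.53 (0.41 to 0.64), within a class whose total hardly differed. *Itga4*, which encodes the α4 integrin chain that binds VCAM1, was at 23.6 and 20.8 CPM in macrophage- or monocyte-like cells and at 0.554 and 0.573 CPM in connective-like cells.

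**Figure D4:**
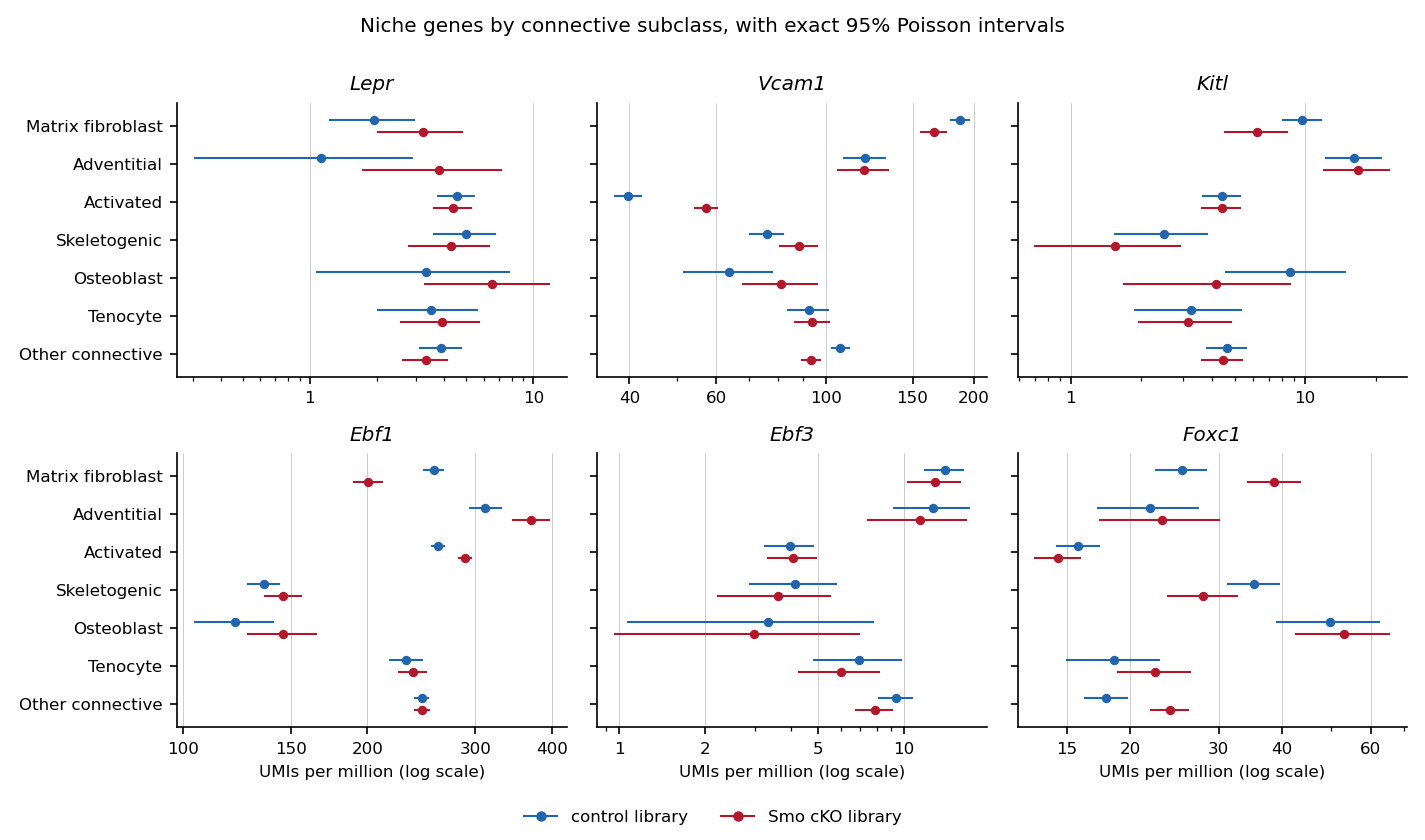
CPM (log scale) of *Lepr*, *Vcam1*, *Kitl*, *Ebf1*, *Ebf3* and *Foxc1* in 7 connective subclasses of the control (blue) and *Smo* cKO (red) libraries, with exact 95% Poisson intervals. The small *Serpinb2* *Dlk1* group is not drawn. *Kitl* peaks in adventitial cells, *Foxc1* in osteoblast-like cells and *Ebf3* in matrix fibroblasts and adventitial cells, while *Vcam1* is highest in matrix fibroblasts and lowest in activated cells.

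*Ebf1* (ENSMUSG00000057098, chromosome 11, 44617317 to 45008091, plus strand), an early B cell factor that also restrains the fibroblastic and osteogenic turn of marrow stroma, was the broadest of the 3 niche transcription factors. It was detected in 4968 of 6409 control (77.5%) and 4044 of 5056 *Smo* cKO (80.0%) connective-like cells, against 2.43% and 3.38% of macrophage- or monocyte-like cells. The connective-like level was 240.4 CPM (237 to 244) and 253 CPM (249 to 256). Mural-like cells were higher, at 419 CPM (380.3 to 460) and 424 CPM (395 to 456), with UMIs in 71 of 73 and 93 of 97 cells. Endothelial-like cells were lower, at 152 CPM (126 to 183) and 170 CPM (144 to 200). The few B lineage cells had the highest level of any class, 704 CPM in 10 control and 1006 CPM in 31 *Smo* cKO cells.

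Within connective-like cells *Ebf1* was lowest in the 2 skeletal subclasses. Osteoblast-like cells had 122 CPM (105 to 140) and 146 CPM (128 to 165) and skeletogenic cells 136 CPM (128 to 144) and 146 CPM (136 to 156), and adventitial cells were highest, the *Serpinb2* *Dlk1* group aside, at 312 CPM (294 to 331) and 370.2 CPM (346 to 396). Between the libraries, matrix fibroblasts were lower in *Smo* cKO cells, from 257 to 200.5 CPM, while adventitial cells and activated cells were higher, the latter from 261 to 288 CPM. The direction over all connective-like cells, a log2 ratio of 0.07 (0.04 to 0.10), turned to −0.14 with cells above 2000 detected genes left out.

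*Ebf3* (ENSMUSG00000010476, chromosome 7, 137193673 to 137314445, minus strand), the related factor that keeps marrow stroma from ossifying, was far sparser. It had 614 UMIs in 546 control and 486 UMIs in 451 *Smo* cKO connective-like cells, or 7.56 CPM (6.98 to 8.19) and 6.48 CPM (5.91 to 7.08). Levels were highest in matrix fibroblasts, at 13.8 CPM (11.8 to 16.1) and 12.8 CPM (10.3 to 15.7), and adventitial cells, at 12.6 CPM (9.20 to 16.9) and 11.3 CPM (7.48 to 16.5). Activated cells had 3.97 and 4.06 CPM and osteoblast-like cells 3.32 and 2.98 CPM, on 5 UMIs each. Muscle cells had a level like that of the connective-like class, 10.4 CPM (6.80 to 15.2) and 8.04 CPM (5.84 to 10.8), whereas macrophage- or monocyte-like cells had 3 UMIs in each library.

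*Foxc1* (ENSMUSG00000050295, chromosome 13, 31806633 to 31812476, plus strand), a forkhead factor needed for the reticular niche and for the developing skeleton, followed another pattern among the subclasses. It had 1695 UMIs in 1329 control and 1684 UMIs in 1207 *Smo* cKO connective-like cells, or 20.9 CPM (19.9 to 21.9) and 22.4 CPM (21.4 to 23.5). Osteoblast-like cells were highest in both libraries, at 49.8 CPM (39.2 to 62.4) and 53.1 CPM (42.6 to 65.4), and activated cells lowest, the *Serpinb2* *Dlk1* group aside, at 15.8 and 14.4 CPM. Skeletogenic cells had 35.2 CPM (31.3 to 39.4) in control and 27.9 CPM (23.8 to 32.6) in *Smo* cKO cells, and matrix fibroblasts 25.3 CPM (22.5 to 28.4) and 38.6 CPM (34.2 to 43.4). The order of the 3 factors was thus not shared: *Foxc1* was highest in osteoblast-like cells, where *Ebf1* and *Ebf3* were low, and *Ebf3* was highest in matrix fibroblasts and adventitial cells. Macrophage- or monocyte-like cells had *Foxc1* in 8 of 1357 and 7 of 1748 cells, against 20.7% and 23.9% of connective-like cells.

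*Pparg* (ENSMUSG00000000440, chromosome 6, 115360951 to 115490399, plus strand), the nuclear receptor that directs adipocyte formation, was low in all classes. Connective-like cells had 144 UMIs in 137 control and 94 UMIs in 90 *Smo* cKO cells, or 1.77 and 1.25 CPM, a log2 ratio of −0.50 (−0.89 to −0.12). Without the barcodes of both libraries the log2 ratio was −0.31 (−0.71 to 0.09), so the interval then included 0. The level in macrophage- or monocyte-like cells, where *Pparg* also acts, was 7.24 CPM (4.77 to 10.5) and 4.01 CPM (2.59 to 5.91), above the connective-like level in both libraries.

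*Cebpa* (ENSMUSG00000034957, chromosome 7, 35119293 to 35121928, plus strand), which works with *Pparg* in fat cells and is also a master factor of myeloid cells, was highest in macrophage- or monocyte-like cells among the larger classes. Macrophage- or monocyte-like cells had 390 UMIs in 304 control and 509 UMIs in 418 *Smo* cKO cells, or 105 CPM (94.5 to 115) and 81.5 CPM (74.6 to 88.9). Connective-like cells had 6.49 CPM (5.95 to 7.07) and 5.72 CPM (5.19 to 6.28), with a UMI in 7.46% and 7.97% of cells. They still held 46.7% and 35.1% of all *Cebpa* UMIs, against 34.5% and 41.7% in macrophage- or monocyte-like cells. The connective-like parts were below what that class held of the UMIs of all genes. Osteoclast-like cells, also of myeloid origin, had 8.05 CPM (4.77 to 12.7) and 11.1 CPM (6.97 to 16.8). Muscle cells had 7.61 CPM (4.58 to 11.9) and 8.59 CPM (6.31 to 11.4), so the connective-like level did not stand above that of muscle.

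Connective-like cells with a high *Cxcl12* level had more *Vcam1* in both libraries. Those with 5000 or more UMIs were counted as *Cxcl12*-high where ln(1 + UMIs per 10000) was above 2, which gave 366 control and 87 *Smo* cKO cells. *Vcam1* was at 227 CPM in these and 85.2 CPM in the other connective-like cells of the control library, and at 249 and 83.4 CPM in the *Smo* cKO library, log2 ratios of 1.41 (1.31 to 1.52) and 1.58 (1.40 to 1.75). Of the *Adipoq* UMIs, 17 of 45 in control lay in 5 *Cxcl12*-high cells, 10 of them in 1 cell, and 3 of 7 in *Smo* cKO lay in 1 cell. The log2 ratios of *Adipoq* were 3.66 (2.70 to 4.58) and 5.52 (2.75 to 8.1), with UMIs of the same cell taken as independent counts. *Pparg* had 0.82 (−0.22 to 1.71) and 1.80 (0.14 to 3.08), on 11 and 5 UMIs in *Cxcl12*-high cells. *Kitl* had log2 ratios of 1.21 (0.72 to 1.67) and 0.68 (−0.46 to 1.62) and *Ebf3* of 1.13 (0.70 to 1.52) and −0.09 (−1.41 to 0.97), so both were higher in the control library and not separable from 0 in the smaller *Smo* cKO group.

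*Lepr* was lower in the *Cxcl12*-high cells of the control library, and in the *Smo* cKO library the interval included 0. The *Cxcl12*-high cells held 6 *Lepr* UMIs in control and 2 in *Smo* cKO cells, or 1.66 and 1.69 CPM, against 3.82 and 3.76 CPM in the other connective-like cells, with log2 ratios of −1.21 (−2.66 to −0.07) and −1.15 (−4.20 to 0.72). *Ebf1* was higher in control *Cxcl12*-high cells (302 against 236 CPM) and lower in *Smo* cKO ones (185 against 253 CPM). *Vcam1*, in turn, was lower in proliferating than in other connective-like cells, at 54.6 against 113 CPM and 69.6 against 98.3 CPM.

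**Figure D5:**
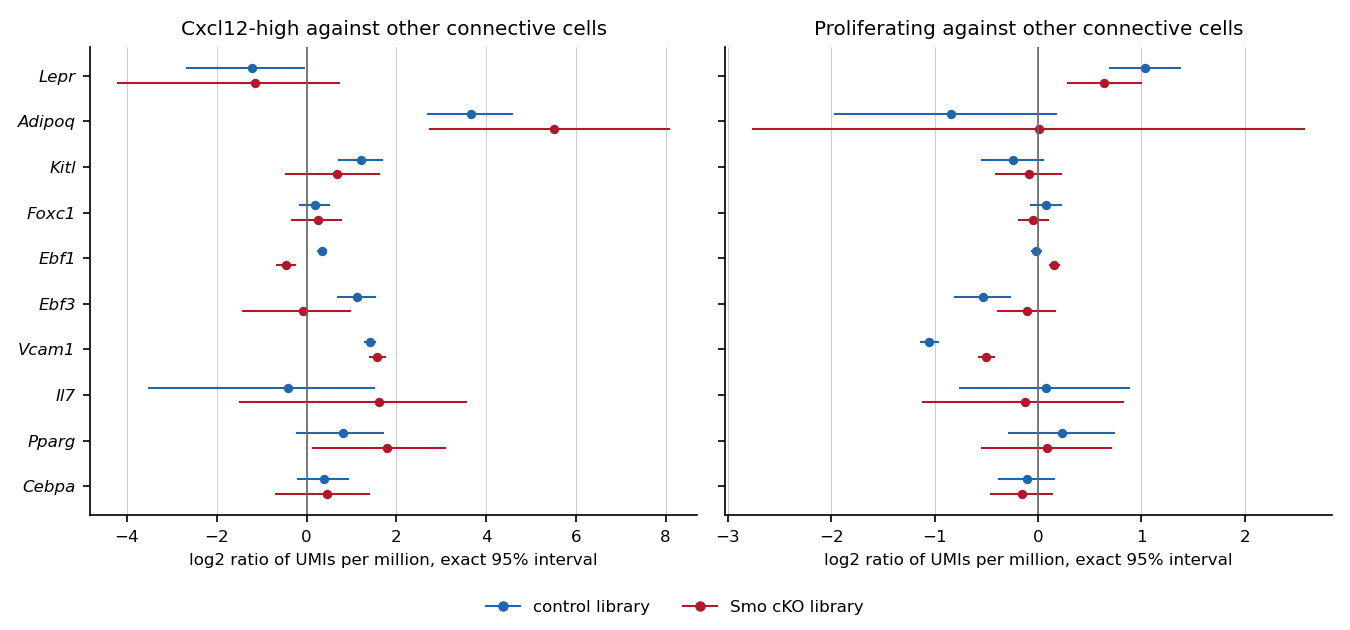
Log2 ratio of CPM for each of the 10 genes in *Cxcl12*-high over other connective-like cells (left) and in proliferating over other connective-like cells (right), cells with 5000 or more UMIs, for the control (blue) and *Smo* cKO (red) libraries. Lines are exact 95% intervals and the vertical line marks equal levels. On the left *Vcam1* lies at 1.41 and 1.58 and *Lepr* at −1.21 and −1.15. On the right *Lepr* lies at 1.04 and 0.64 and *Vcam1* at −1.05 and −0.50.

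The reporter gave no further division, since tdTomato, which marks recombined cells, was found in only 48 control and 105 *Smo* cKO connective-like cells. In those with 5000 or more UMIs, *Lepr* had 4 and 5 UMIs and *Adipoq* none, and *Vcam1* was at 75.0 CPM in control and 92.0 CPM in *Smo* cKO cells, against 91.8 and 85.9 CPM in the cells without a tdTomato UMI. The paper puts the Sox9+ lineage at a far larger part of the callus, so cells without a tdTomato UMI cannot be taken as unrecombined. In connective-like cells tdTomato itself was at 0.591 CPM in control and 1.43 CPM in *Smo* cKO, on 48 and 107 UMIs (log2 ratio 1.27, 0.77 to 1.79).

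For the comparison of genotypes, 3 of the 10 genes (*Ebf1*, *Vcam1* and *Foxc1*) reached 10 CPM in connective-like cells, and 0 of them differed by 2-fold or more, where 1.14% of 7261 genes did. The median log2 ratio of these 3 was 0.07, against 0.02 over all genes at 10 CPM or more. Over all 10 members the median was −0.19, with 3 ratios above 0 and 7 below. Most of these lie under the 10 CPM limit, and the same count over all genes at such levels was not made, so it has no background here. Counting intervals exclude 0 even for ratios near 0 where UMIs are many, as for *Ebf1* and *Vcam1*. How many of all genes have an interval that excludes 0 was not counted. *Kitl* had a log2 ratio of −0.21 (−0.41 to −0.003), *Ebf3* of −0.22 (−0.40 to −0.05), *Cebpa* of −0.18 (−0.37 to 0.003), *Il7* of −0.36 (−0.95 to 0.22), *Foxc1* of 0.10 (0.005 to 0.20) and *Lepr* of 0.03 (−0.21 to 0.26). Without the barcodes of both libraries the intervals of *Kitl* and *Foxc1* reached across 0 (−0.40 to 0.02 and −0.02 to 0.19) and that of *Cebpa* no longer did (−0.40 to −0.003). With the stricter class limits the interval of *Ebf3* also reached across 0 (−0.35 to 0.04). The largest difference of the 10 was that of *Adipoq*, on 45 and 7 UMIs.

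Genes that work with the members were read from 4 lists chosen by function. Of their genes at 10 CPM or more, 0 differed by 2-fold or more in connective-like cells, where 1.14% of 7261 genes did. With so few listed genes, a count of 0 does not stand apart from that share. Of 12 other niche factors, 5 reached 10 CPM, with a median log2 ratio of 0.16. *Cxcl12* had 167 CPM in control and 111 CPM in *Smo* cKO cells (−0.59, −0.63 to −0.55), whereas the growth factor genes *Ptn* (177 and 271 CPM, 0.62) and *Csf1* (51.3 and 70.7 CPM, 0.46), the macrophage growth factor, were higher in the *Smo* cKO library. The niche factors thus did not lie on one side. The Bmp antagonist gene *Grem1*, below the 10 CPM limit, was at 3.14 CPM (255 UMIs) and 6.65 CPM (499 UMIs).

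Among 10 related transcription factors, 7 reached 10 CPM with a median of −0.02. *Ebf2*, the paralog that marks some stromal and preadipocyte cells, was at 17.0 and 12.4 CPM (−0.45, −0.57 to −0.33), *Cebpb* at 69.6 and 56.4 CPM (−0.30) and *Cebpd*, both early adipogenic and acute-phase factors, at 96.1 and 137 CPM (0.51). Of 14 PPARγ and adipocyte targets, 5 reached 10 CPM, with a median of −0.21: *Fabp4* had a log2 ratio of −0.54 (−0.64 to −0.44), *Scd1* at 29.7 and 25.3 CPM (−0.23), *Cfd* at 20.9 and 18.1 CPM (−0.21), *Lpl* at 45.6 and 40.8 CPM (−0.16) and the lipid droplet gene *Plin2* at 32.4 and 42.8 CPM (0.40). Of 10 receptors and ligand partners, 4 reached 10 CPM, with a median of 0.02. The adiponectin receptor genes *Adipor1* and *Adipor2* were among these, at 114 and 23.8 CPM in control and 116 and 20.5 CPM in *Smo* cKO cells. The leptin gene *Lep* had 0 control and 1 *Smo* cKO UMI in connective-like cells.

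The genes whose class pattern was most like that of each member other than *Ebf1* were ranked by the lower of the Pearson correlations in the control and *Smo* cKO libraries, of log2(CPM + 1) over 7 classes that share their library, among 10481 other genes. *Kitl* was most like the endothelial genes *Ldb2* (0.98), *Clec14a* (0.97) and *Plcd3* (0.96). *Foxc1* was most like *Dlc1*, *Hdgfl3* and *Fah* (0.99 to 0.98), *Vcam1* like *Tmem176b*, *Rnf150* and *Tmem176a* (0.93 to 0.90) and *Cebpa* like *Fam83f*, *Fcrls* and *Spp1* (0.95 to 0.94). For *Ebf3* these were *Cntln*, *Tsen34* and *Gnas* (0.97), for *Il7* *Clca2*, *Bcl6b* and *Prkcz* (0.97), for *Pparg* *Pfkfb3*, *Pik3c2a* and *H2-Q4* (0.94 to 0.93), for *Lepr* *Jak3*, *B3gnt2* and *Dnm2* (0.90 to 0.87) and for *Adipoq* *Bglap2*, *Bglap* and *Derl1* (0.87 to 0.82). The last 4 rest on few UMIs in most classes and describe little more than where these fell.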

How the data were processed

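Libraries were made on the 10x Chromium platform from the pooled callus cells of 3 mice for each genotype. According to the submitters' processing notes the authors used Cell Ranger 3.0.2 and the mm10 build. What they deposited are unnormalised UMI counts by gene and cell barcode, 105367110 and 112700220 UMIs in the control and *Smo* cKO library. The authors' upper limit on detected genes was not applied as the main setting, because it removes 58.0% and 59.4% of the kept cells.

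Counts were summed over the cells of a class and library and divided by the UMIs of that class (CPM). A cell was connective-like where 10 connective genes made up 1% or more of its UMIs and no other list passed. Another class needed 3 or more markers (mural 4) and a mean z score of 0.5 or more, and cells that passed both stayed apart as mixed. The mural list was an exception: cells in which it scored highest were called mural-like whatever their share of connective transcripts. Of the mural-like cells, 60 lay in Louvain clusters named connective and 104 in the mural cluster. Subclasses needed 2 markers. The limits were set after the marker values had been seen, without the values of the 10 genes, and classes rest on rebuilt names. The members and gene lists were chosen with earlier results of these data known. Named genes were all 10 members, 4 lists of partners and the 3 genes most alike to each member, of which those of *Ebf1* are not reported here. The other genes named were chosen after their values were seen. Ratios have exact conditional intervals. Thinned shares are expectations over draws of 1000 UMIs. Scrublet (scanpy 1.11.5) marked 0 and 2 cells as doublets at its own threshold, so no doublets were removed in the main results. Positions come from GENCODE vM21, in which no member overlaps another gene on its strand. Analyses ran in Python 3.11.15 with numpy 2.4.6 and scipy 1.17.1.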

Additional observations from a re-analysis of the deposited data

Results flagged for a closer look

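For *Vcam1*, *Foxc1* and *Ebf1*, the libraries differed in opposite directions in different classes or subclasses, with counting intervals that excluded 0 on both sides. These are the members with the most UMIs in connective-like cells, where counting intervals are narrowest. How many of all genes meet the same rule was not counted. The ratios below include the barcodes found in both libraries. The difference between the classes was not tested, since each genotype has 1 library.

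*Vcam1* had log2 ratios (*Smo* cKO over control) of −1.92 in macrophage- or monocyte-like, −1.23 in endothelial-like and −0.081 in connective-like cells and of 0.38 in muscle cells. Within connective-like cells its ratios were −0.18 in matrix fibroblasts, −0.20 in the remaining connective-like cells, 0.22 in skeletogenic and 0.53 in activated cells.

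*Foxc1* had log2 ratios of −0.33 in skeletogenic cells, 0.61 in matrix fibroblasts and 0.42 in the remaining connective-like cells. *Ebf1* had −0.36 in matrix fibroblasts, 0.25 in adventitial cells, 0.14 in activated cells and 0.68 in the *Serpinb2* *Dlk1* group, which had 8 control and 81 *Smo* cKO cells.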

How the results depend on the processing

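The count of members at 10 CPM or more that differed by 2-fold or more in connective-like cells was 0 in all 9 alternatives run. It holds 3 members in the main result, and *Adipoq*, *Lepr* and *Pparg*, whose ratios passed 2-fold in some settings, lie below the limit. The count of cells with both *Lepr* and *Adipoq* was 0 in all 7. With cells above 2000 detected genes left out, only 4 classes still had 50 cells. Among these, 4 of all 10 members, whatever their CPM, were highest in connective-like cells (1 in the main result, *Adipoq*). The endothelial and mural classes, where *Lepr*, *Kitl*, *Il7* and *Ebf1* were highest in the main result, were no longer compared. How many of all genes were highest in connective-like cells at this limit was not counted. The log2 ratios in connective-like cells then became 1.53 for *Lepr*, 0.34 for *Foxc1*, −0.14 for *Ebf1* (a change of sign), −0.0052 for *Ebf3*, −0.0015 for *Vcam1*, −2.47 for *Pparg* and 0.11 for *Cebpa*, and that of *Adipoq* could not be given, with 0 *Smo* cKO UMIs. These rest on 1615 and 918 shallow cells. In the other alternatives these ratios stayed within the main intervals, but some intervals came to include 0. Counted with the limit of 2000 genes, this was so in 7 of 8 alternatives for *Foxc1*, 6 for *Kitl*, 3 for *Ebf3*, 2 for *Pparg* and 1 for *Vcam1*, and never for *Ebf1*. The interval of *Adipoq* included 0 with the limit of 2000 genes, on 2 and 0 UMIs, and excluded it in the other 7 alternatives. The interval of *Cebpa*, which includes 0 in the main result, excluded it in 2 and that of *Lepr* in 1.

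The expected share of connective-like cells with a *Lepr* UMI depends on depth. It was 0.305% of control and 0.410% of *Smo* cKO cells at 1000 UMIs, 0.879% and 1.04% at 3000 UMIs, 3.29% and 3.94% without thinning, and 0.807% in the *Smo* cKO library with the limit of 2000 genes. The log2 ratio of *Vcam1* in macrophage- or monocyte-like cells was −1.65 with classes taken from Louvain clusters and between −2.08 and −1.92 in the other 6 alternatives. These alternatives of *Vcam1*, the removal of barcodes of both libraries and the removal of the 8% of cells with the highest Scrublet scores were chosen after seeing the data. Removal of cells called by Scrublet was not run, since it called 0 and 2 cells. No paired analysis was possible because each genotype has 1 library. Low counts limit *Adipoq*, *Il7* and *Pparg* most.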
